A study of Rattus norvegicus with 8 samples.

Results

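The Egr genes (Egr1, Egr2 and Egr4) encode zinc finger transcription factors, and the Ier genes (Ier2 and Ier3) encode small proteins of unrelated families that share the name immediate early response. They were taken by gene symbol from expression tables of INS-1 cells, a line from a rat insulin-producing tumour that stands in for beta cells of the pancreas. The set was selected on measured values of these libraries, its forskolin induction and how that induction differed between conditions. All 5 were among the 1344 genes of a glucose table, and Egr1, Egr4 and Ier2 were also among the 566 genes of an A-CREB table. The tables together hold 1586 genes, of which 324 are in both. Egr2 and Ier3 were not listed in the A-CREB table, so they could not be analysed in that arm.

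Immediate early genes are transcribed within minutes of a stimulus, from promoters already loaded with signal-dependent factors, and need no new protein for their induction. Of these factors, CREB binds the cAMP response element and is switched on by protein kinase A, while SRF with its ETS partners binds the CArG box and is switched on by the ERK pathway. Both inputs meet in insulin-secreting cells, where glucose brings calcium entry and ERK activity and incretin hormones raise cAMP.

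The series asked how glucose exposure and CREB activity alter cAMP-dependent gene regulation in beta cells. In the glucose arm, cells were kept for 3 days in 2.8 or 20 mM glucose before 10 uM forskolin, which activates adenylyl cyclase and so raises cAMP, or its vehicle DMSO was applied for 2 h. In the other arm, cells at 11 mM glucose were either left without virus or infected for 2 days with adenovirus carrying A-CREB, a dominant-negative protein that keeps CREB off DNA, again with forskolin or DMSO for 2 h. Each of the 8 groups was 1 library, so no difference had a replicate check, none was tested, and all values describe these libraries. The control of the A-CREB arm carried no virus, so infection and A-CREB cannot be told apart. In bulk libraries, more cells expressing a gene and more RNA per cell cannot be told apart either.

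Values were taken as FPKM, fragments scaled to transcript length and to the size of the library, because the submitters' notes name Cuffdiff; the column headers name no unit. Each table is limited to genes that forskolin induced more than 2-fold over DMSO in its reference condition, 2.8 mM glucose or no virus. The lowest such ratio was 2.00 in both tables. Of 17 beta cell markers, Ucn3, Nkx2-2, Pcsk1 and Mafa were listed with glucose, and Pdx1 and Nkx2-2 with A-CREB. Mafa stood there under a name with stray characters. None of 15 markers of other islet cells, fibroblasts, endothelium and immune cells was listed. A marker that forskolin does not induce would not appear, so the tables check cell identity only weakly. Library totals are not given in the sources used here. From the deposited values, the spacing of low values put 1 FPKM at about 14.0 to 23.0 reads in the 4 glucose libraries and about 8.12 to 12.1 reads in the 4 A-CREB libraries, for a gene of median length among the weakly expressed ones.

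Promoters are shown because these genes are known for the signal-dependent elements next to their start sites. RefSeq windows on the rat build GRCr8 were matched for Egr1, Egr2, Egr4 and Ier2, and the 250 bases before the annotated start are printed 5′ to 3′ on the strand of the gene. The windows are chr18:26736828-26737077 on the plus strand for Egr1, chr20:21054442-21054691 on the minus strand for Egr2, chr4:119607818-119608067 on the minus strand for Egr4 and chr19:40399123-40399372 on the plus strand for Ier2. Capitals mark the core of the cAMP response element, TGACG or its reverse complement CGTCA, and the CArG box.
Egr1: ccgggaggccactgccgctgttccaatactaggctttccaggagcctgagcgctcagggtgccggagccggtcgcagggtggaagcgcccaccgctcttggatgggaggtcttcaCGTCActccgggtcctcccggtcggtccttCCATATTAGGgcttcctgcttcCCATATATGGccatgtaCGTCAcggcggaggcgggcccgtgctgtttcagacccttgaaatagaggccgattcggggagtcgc
Egr2: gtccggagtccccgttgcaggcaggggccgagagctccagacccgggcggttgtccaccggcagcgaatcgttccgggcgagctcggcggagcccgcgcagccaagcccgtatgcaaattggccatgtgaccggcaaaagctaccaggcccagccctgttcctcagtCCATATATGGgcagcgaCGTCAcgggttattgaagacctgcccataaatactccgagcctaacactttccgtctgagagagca
Egr4: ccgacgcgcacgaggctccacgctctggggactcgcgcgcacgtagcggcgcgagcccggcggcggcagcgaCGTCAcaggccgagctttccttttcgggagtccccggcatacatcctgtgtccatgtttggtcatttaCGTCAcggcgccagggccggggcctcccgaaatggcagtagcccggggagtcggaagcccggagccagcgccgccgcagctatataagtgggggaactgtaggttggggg
Ier2: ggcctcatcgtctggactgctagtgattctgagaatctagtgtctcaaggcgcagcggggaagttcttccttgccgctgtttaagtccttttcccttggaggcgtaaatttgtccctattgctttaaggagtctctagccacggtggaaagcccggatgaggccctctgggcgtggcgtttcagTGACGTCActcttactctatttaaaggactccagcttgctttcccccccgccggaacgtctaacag

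All 4 windows held this core, which 18.2% of the 33469 windows of the same length in the RefSeq table held on either strand. The windows of Egr1, Egr2, Egr4 and Ier2 were 63.2, 62, 68 and 53.2% G and C, against a median of 51.2% over all windows. The core contains CG, and the shares over all windows are not matched for base content. The complete palindrome TGACGTCA was in the Ier2 window, starting 66 bases before the start site, and in 1.59% of all windows. It is made of both cores overlapping. Egr1 and Egr2 each had CCATATATGG, a CArG box, starting 83 bases before the start and CGTCA starting 66 bases before it. Egr1 also had the CArG box CCATATTAGG at 105 bases and CGTCA at 135 bases. Egr4 had CGTCA at 178 and 110 bases and no CArG box in this window. A CArG box was in 1.5% of all windows, and a CArG box together with a core in 0.23%. The EGR site GCGNGGGCG and the box TATAAA were searched on both strands, and none of the 4 windows held either, against 4.29% and 12.9% of all windows. A match in letters is a description and does not show that a factor is bound there.

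The glucose arm set the response to forskolin after 3 days at 20 mM against that at 2.8 mM. Folds are the ratio of forskolin to DMSO after adding 0.1 FPKM to each, and changes are differences of log2 folds. All 5 genes had a forskolin fold at 20 mM that was as high as at 2.8 mM or higher. Egr1 and Egr2 had folds over 1.5 times higher at 20 mM, while Egr4, Ier2 and Ier3 had nearly equal folds in both. The call of Egr2 was lost with 1 FPKM added, where its change was 0.40 on the log2 scale. Without the added 0.1 FPKM the ratios of Egr4 were 14.59 at 2.8 mM and 14.58 at 20 mM, so its direction depends on that addition. Across the table a higher fold at 20 mM was found for 118 of 1344 genes (8.78%), and a fold higher by more than 1.5 times for 28 genes (2.08%). The genes were chosen with these values known, so the counts are a description.

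Egr1, a zinc finger transcription factor induced by calcium and ERK signals in beta cells, measured 23.6 FPKM with vehicle and 85.2 FPKM after forskolin in cells from 2.8 mM glucose. In cells from 20 mM it measured 10.1 FPKM with vehicle and 93.1 FPKM after forskolin. The forskolin levels were close in both glucose conditions and the DMSO level was the lower one at 20 mM. The fold was 3.60 at 2.8 mM and 9.10 at 20 mM, a change of 1.34 on the log2 scale. This was the 6th highest change of the table. Set against 2.8 mM, the 20 mM level differed by -1.21 with vehicle and 0.13 after forskolin on the log2 scale. A DMSO level lower by more than 1.5 times was found for 15.9% of the table.

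Egr2, also called Krox20 and known for its part in hindbrain patterning and in myelination by Schwann cells, was close to the limit of detection. At 2.8 mM it measured 0.0518 FPKM with vehicle and 0.175 FPKM after forskolin, and at 20 mM 0.0213 and 0.502 FPKM. Scaled by relative depth, these values match whole reads, the smallest set being 2, 5, 1 and 16 reads. The read-based ratio was 3.37 at 2.8 mM, with an exact binomial 95% interval of 0.551 to 35.4, and 23.6 at 20 mM, with an interval of 3.67 to 991. The forskolin level at 20 mM was 2.87 times that at 2.8 mM, with an interval of 1.01 to 10.0. These intervals cover counting error only. With 0.1 FPKM added the folds were 1.81 and 4.96 and the change was 1.45, the 4th highest of the table. The intervals of the 2 ratios overlap, so the higher fold at 20 mM was not resolved at this depth. Most of the Egr2 reads of the glucose arm came from the 20 mM forskolin library.

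Egr4, also called NGFI-C and best known from the nervous system and, in mice, from male germ cells, had the largest folds of the 5 genes in the glucose table with 0.1 FPKM added, though not by read-based ratio at 20 mM, where that of Egr2 was higher. At 2.8 mM it measured 1.03 FPKM with vehicle and 15.0 FPKM after forskolin, and at 20 mM 1.42 and 20.6 FPKM. Both levels were somewhat higher at 20 mM and the fold was 13.4 and 13.7. The change was 0.03, with a 95% range from counting error of -0.82 to 0.88 if 1 read is worth as much as at the median gene. At about 19.4 reads in 2.8 mM DMSO, a difference in fold within that range was not detectable. With a fold of 13.7, Egr4 ranked 28th of the table at 20 mM and 77th at 2.8 mM.

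Ier2, a small nuclear protein induced by growth factors, measured 4.98 FPKM with vehicle and 21.2 FPKM after forskolin at 2.8 mM, then 5.09 and 23.6 FPKM at 20 mM. Its 2 DMSO values and its 2 forskolin values nearly coincided. The folds were 4.19 and 4.57, and the change was 0.13 (counting range -0.32 to 0.57). Ier3, also called IEX-1 and known as a regulator of cell survival and of ERK signalling, measured 14.2 FPKM with vehicle and 62.0 FPKM after forskolin at 2.8 mM, then 7.72 and 36.7 FPKM at 20 mM. Both of its 20 mM levels were lower than the 2.8 mM levels, by a similar factor. The log2 ratios of 20 mM over 2.8 mM were -0.87 in DMSO and -0.75 in forskolin. The folds were 4.35 and 4.71, and the change was 0.12 (counting range -0.20 to 0.43). These ranges use the reads per FPKM of the median gene and not those of each gene's own length.

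**Figure D1:**
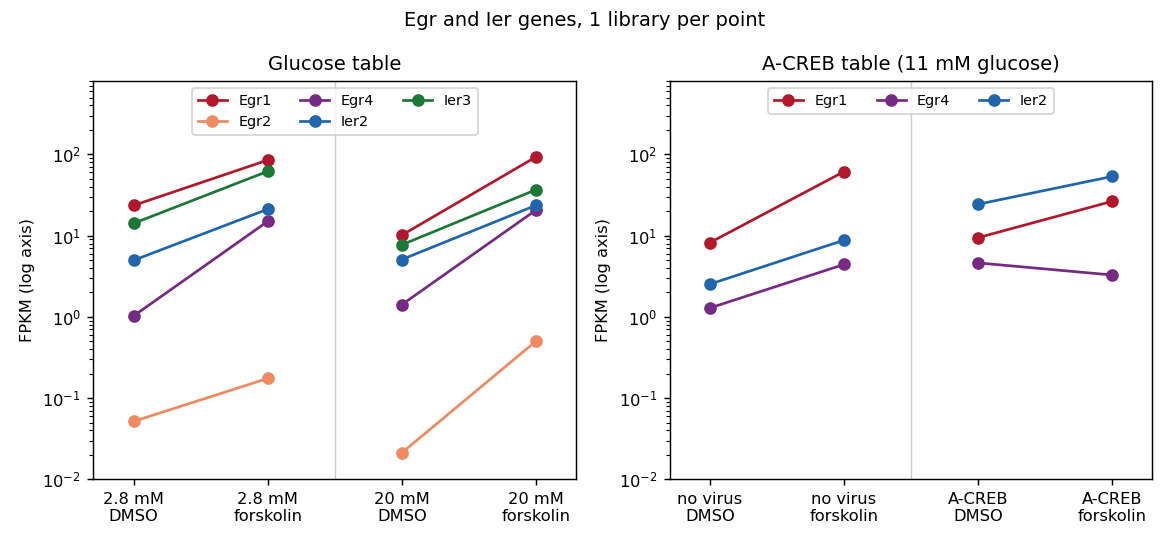
FPKM of the Egr and Ier genes (log axis) in the 4 libraries of the glucose table (left) and of the A-CREB table (right), with lines from DMSO to forskolin in the same condition. Each point is 1 library. Egr1 starts from 23.6 FPKM at 2.8 mM and from 10.1 FPKM at 20 mM and ends near the same forskolin level, and Egr4 is lower in forskolin than in DMSO with A-CREB.

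In forskolin, 4 of the 5 genes were higher at 20 mM than at 2.8 mM, Ier3 being the exception, whereas 263 of 1344 genes of the table (19.6%) were higher. Past 1.5 times, Egr2 was higher and Ier3 lower in forskolin, against 7.14% and 54.6% of the table. In DMSO, Egr1 and Ier3 were lower by more than 1.5 times, against 15.9% of the table. None of the 5 was higher by that much, as 28.2% of the table were. All 5 reached a 2-fold induction at 20 mM, against 500 genes (37.2%). At 2.8 mM 4 did so with the added 0.1 FPKM, Egr2 being short of it, against 88.7%, a condition by which the table was made. Over all genes the median log2 fold was 1.45 at 2.8 mM and 0.73 at 20 mM, and the median change was -0.81. The 5 genes, with changes of 0.03 to 1.45, all lay among the highest 8.26% of the table. They were chosen with these values known, so this position is a description. Genes entered the table by their fold at 2.8 mM, which is part of the change, so this selection may lower the median change. Its size was not tested.

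**Figure D2:**
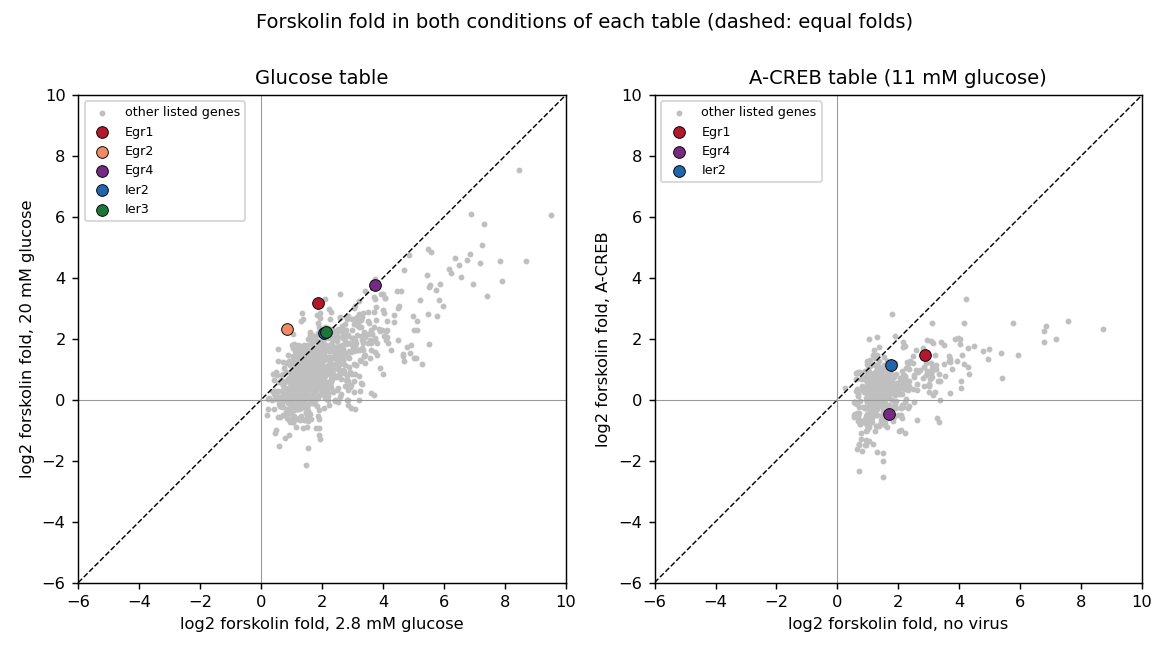
For the glucose (left) and A-CREB (right) tables, log2 forskolin fold in the reference condition (x axis) and in the second condition (y axis) for each listed gene without a 0 in any library (grey, 1269 genes left, 522 genes right), with the Egr and Ier genes in colour. In the glucose table Egr1 and Egr2 lie above the dashed line of equal folds and the other members on it, and in the A-CREB table Egr1, Egr4 and Ier2 lie below it.

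Other early genes, from lists chosen with earlier results of these data known, had mostly lower folds at 20 mM. SRF-type and CREB-type are names of these lists, and which factor acts on each gene was not tested. Of 31 SRF-type immediate early genes 20 were listed, of which 16 lost more than 1.5 times of their fold at 20 mM and 1 gained as much, against 65.6% lower and 2.08% higher in the whole table. Their median change was -1.44. The 1 higher gene was Ctgf, which was listed at 0 in 20 mM DMSO and counts only through the added 0.1 FPKM. Fos, an AP-1 subunit, measured 1.24 FPKM with vehicle and 155 FPKM after forskolin at 2.8 mM, then 2.61 and 73.8 FPKM at 20 mM. Its folds were 116 and 27.2. Fosl2, Fosb and Klf4, the other 3 with the highest folds at 2.8 mM, had folds of 412 and 23.4, 357 and 184, and 82.0 and 25.04. Of 20 CREB-type early genes 16 were listed, and 12 were lower past 1.5 times and none was higher, with a median change of -2.10. The nuclear receptor gene Nr4a3 had folds of 739 and 67.6, Fam46b 239.95 and 14.8, Rgs2, a regulator of G protein signalling, 229.9 and 23.6, and the kinase gene Sik1 109 and 24.3. Apart from Ctgf, the genes named so far had the highest folds of their list at 2.8 mM, and that fold is part of the change. How far this choice enlarged their losses was not tested. Among list genes with lower folds at 2.8 mM, Pde4d had 3.88 and 3.69 and Per2 2.42 and 2.77. Others lost more, such as Pde10a with 3.72 and 1.99 and Jun with 5.71 and 1.30.

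The EGR proteins are held in check by NAB corepressors, and ERK signalling upstream of them by phosphatases and Sprouty proteins. Of 8 regulators of EGR and SRF activity, Nab1 was listed, in the glucose table. It measured 11.8 FPKM with vehicle and 31.8 FPKM after forskolin at 2.8 mM, then 10.2 and 26.1 FPKM at 20 mM. Its folds of 2.68 and 2.54 differed little. Of 16 MAPK feedback genes 8 were listed, 5 of them lower past 1.5 times at 20 mM and none higher, against 65.6% and 2.08% of all genes, and the median change of -0.89 was near that of the whole table, -0.81. Dusp1, a phosphatase of MAP kinases, had folds of 12.2 and 3.62, the ERK pathway inhibitor Spry1 11.3 and 3.63, and the EGF receptor inhibitor Errfi1 6.92 and 4.90. Dusp4, a nuclear MAP kinase phosphatase, had the fold nearest to equal among the 4 named, with 5.94 and 6.49, at 111 and 105 FPKM in forskolin.

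**Figure D3:**
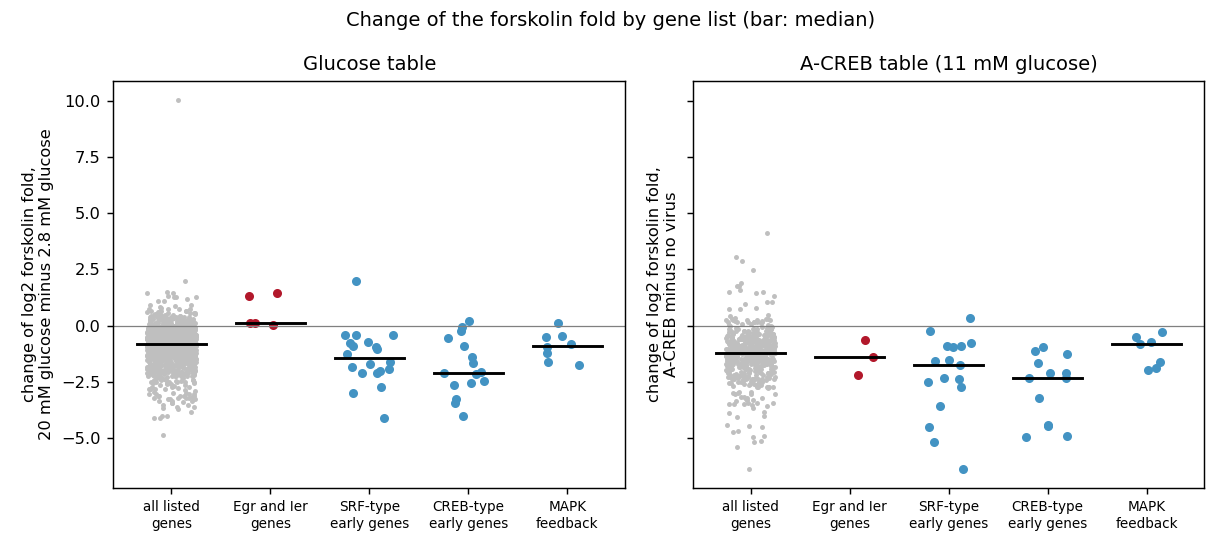
Change of the log2 forskolin fold between the conditions of each table (y axis) for all listed genes (grey), the Egr and Ier genes (red) and 3 lists of other signal-induced genes (blue), with a bar at each median. The 5 Egr and Ier genes of the glucose table lie at or above 0, where the medians of the other lists are -1.44, -2.10 and -0.89, and the 3 of the A-CREB table lie below 0.

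The other arm set the forskolin response of A-CREB cells against that of cells without virus. Egr1, Egr4 and Ier2 all had a lower fold with A-CREB, each by more than 1.5 times, as had 447 of 566 genes (79%), while 3.18% were higher by that much. Without virus all 3 were induced at least 2-fold, against 80.4% of the table, which was made by that condition. The no-virus fold is also part of the change, so this selection may raise the share of lower folds, which was not tested. The 3 genes reached the lower fold in different ways. Egr1 had a lower forskolin level, Egr4 a higher DMSO level, and Ier2 much higher levels in both libraries. At least a 2-fold induction with A-CREB was left for Egr1 and Ier2, against 19.1% of the table. For Ier2 the counting range of this fold was 1.89 to 2.55, so its place above 2-fold was not resolved.

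Without virus Egr1 measured 8.20 FPKM with vehicle and 61.4 FPKM after forskolin, and with A-CREB 9.45 and 26.5 FPKM. The DMSO levels were close and the A-CREB forskolin level was below the no-virus one. The folds were 7.41 and 2.78, and the change was -1.41 (counting range -1.90 to -0.93), near the table median of -1.20. The forskolin level was lower by 1.5 times or more, as for 61% of the table. The tables were scaled separately. Side by side, the Egr1 fold was 3.60 at 2.8 mM, 9.10 at 20 mM and 7.41 at 11 mM without virus. In the same order the folds were 13.4, 13.7 and 3.26 for Egr4 and 4.19, 4.57 and 3.38 for Ier2, lowest at 11 mM. A dependence on glucose across the arms was not tested.

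Without virus Egr4 measured 1.29 FPKM with vehicle and 4.42 FPKM after forskolin, and with A-CREB 4.62 and 3.28 FPKM. Within this table only the no-virus DMSO library stood low, and the other 3 libraries lay between 3.28 and 4.62 FPKM. In the glucose table, scaled separately, the Egr4 DMSO values were 1.03 and 1.42 FPKM, near the no-virus DMSO value. The folds were 3.26 and 0.716, so that forskolin was below DMSO with A-CREB, as for 170 genes (30%). With about 44.7 and 39.7 reads in the A-CREB libraries, the counting range of the second fold was 0.467 to 1.10, so a level in forskolin below that in DMSO was not resolved at this depth. The change of -2.19 had a counting range of -3.32 to -1.05, and the no-virus DMSO value behind it rests on about 11.5 reads.

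Without virus Ier2 measured 2.53 FPKM with vehicle and 8.80 FPKM after forskolin, and with A-CREB 24.4 and 53.5 FPKM. Both A-CREB libraries lay above both no-virus libraries. The A-CREB over no-virus ratio was 9.30 in DMSO, the 12th highest of 566 genes, and 6.03 in forskolin, the 5th highest. A DMSO level higher by more than 1.5 times was found for 38.5% of the table, a lower one for 17.3%, and a forskolin level higher by that much for 9.01%. The folds were 3.38 and 2.19, and the change of -0.62 was less negative than the table median of -1.20. Its counting range of -1.34 to 0.09 includes both 0 and the table median. At this depth neither the lower fold nor the difference from the table median was resolved. The virus as such was not controlled for, and its part in the high Ier2 levels cannot be told apart from that of A-CREB.

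**Figure D4:**
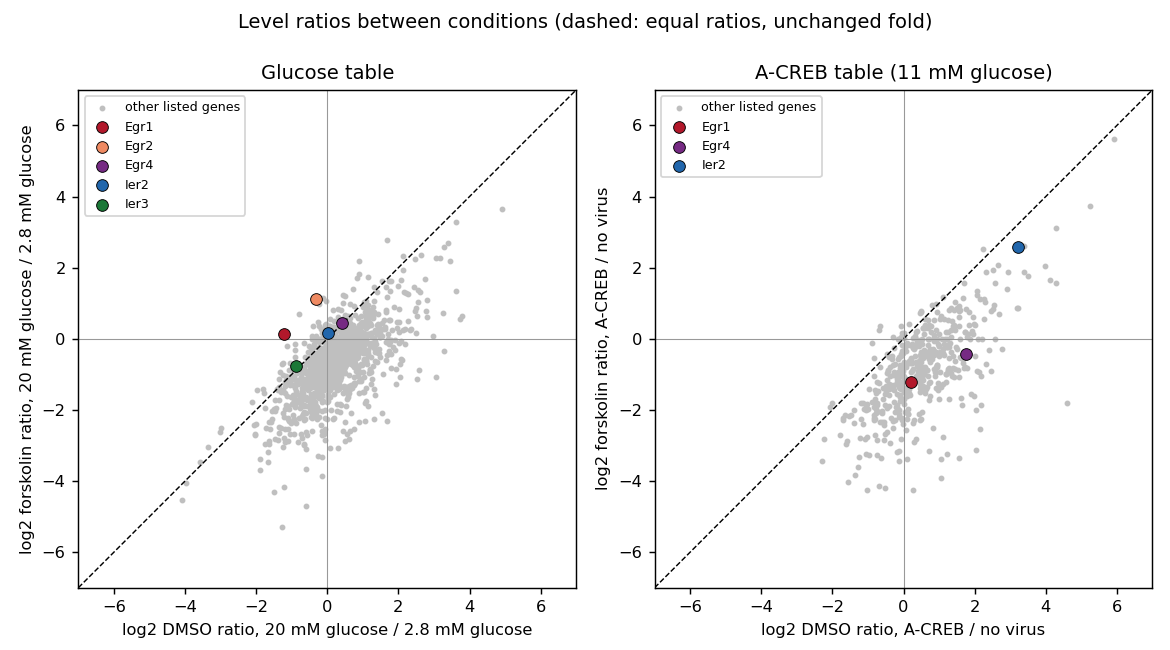
Log2 ratio of the second over the reference condition in DMSO (x axis) and in forskolin (y axis) for each listed gene without a 0 in any library (grey), with the Egr and Ier genes in colour; on the dashed line the forskolin fold is equal in both conditions. Ier2 in the A-CREB table has ratios of 3.22 and 2.59 on the log2 scale, and Egr1 in the glucose table a DMSO ratio of -1.21 with a forskolin ratio of 0.13.

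Among other early genes, all 13 listed CREB-type genes were lower in fold past 1.5 times with A-CREB, against 79% of the table, with a median change of -2.31 against -1.20. Nr4a3 had folds of 189 and 5.96, Sik1 115 and 5.30, Rgs2 110.4 and 3.68, and Crem, which encodes the CREB antagonist ICER, 61.6 and 2.80. Their forskolin levels were lower past 1.5 times with A-CREB in 12 of 13, against 61%. Of 17 listed SRF-type genes, 15 were lower past 1.5 times, against the same 79%, and none was higher, with a median change of -1.74. Fosb had folds of 424 and 5.04, Klf4 144 and 4.002, Fosl2 111 and 4.78, and Fosl1, another AP-1 subunit, 30.6 and 2.53. The log2 changes of Fosb and Klf4, -6.40 and -5.17, were larger in size than that of Nr4a3, -4.98, so the SRF-type and CREB-type lists overlapped. The genes named from each list are again those with the highest reference folds. Of 7 MAPK feedback genes 5 were lower past 1.5 times, near the 79% of the table, and their median change of -0.80 was less negative than the table median. Dusp1 had folds of 17.7 and 5.78, Spry1 14.6 and 3.97, Dusp10, a phosphatase of JNK and p38, 4.93 and 1.26, and Dusp5, a phosphatase of ERK, 3.34 and 1.92. The change of Ier2, at -0.62, was smaller in size than the medians of these lists, but its counting range of -1.34 to 0.09 also held the MAPK feedback median. That of Egr4, at -2.19, was close to the CREB-type median, but its counting range of -3.32 to -1.05 also held the SRF-type and table medians. The log2 forskolin ratio of Egr4 was -0.42, against a CREB-type median of -3.25.

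Genes with the most similar pattern were found by the distance between log2 profiles over the 4 libraries of a table, each centred on its own mean, among genes of at least 1 FPKM on average. In the glucose table, Egr1 was nearest to Pcdh9, a protocadherin (distance 0.60), Synm, an intermediate filament protein (0.60), and Foxa1, a pioneer transcription factor (0.66). Foxa1 measured 5.76, 14.7, 3.27 and 23.9 FPKM in 2.8 mM DMSO, 2.8 mM forskolin, 20 mM DMSO and 20 mM forskolin, so it had a lower DMSO level at 20 mM as Egr1 had. Ier2 was nearest to Trib2, Cfap157 and Cdkn1b at distances of 0.18 to 0.26, and Cdkn1b, the cell cycle inhibitor p27, had folds of 5.01 and 4.08. Ier3 was nearest to Tmem163, Cpeb4 and Tmem158 at 0.21 to 0.31, with Tmem163 at 25.5, 115, 16.9 and 71.4 FPKM in the same order. Egr4 was nearest to Pappa, Giot1 and Ankrd34c, and Egr2 to LOC500035, Cyth3 and St8sia4. Pappa, a protease that frees insulin-like growth factors, had folds of 13.2 and 13.3, close to those of Egr4.

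In the A-CREB table, Egr1 was nearest to Btg2, an antiproliferative early gene (0.24), Zfp703 (0.29) and the small GTPase gene Gem (0.47). Btg2 was at 33.9, 313, 46.9 and 130 FPKM in no-virus DMSO, no-virus forskolin, A-CREB DMSO and A-CREB forskolin. Egr4 was nearest to S100a13, Mpzl3 and Fbxo15 at 0.27 to 0.32, all with forskolin below DMSO with A-CREB. Ier2 had no close neighbour, the nearest being Tmc7 at 0.73, Calca at 0.85 and Lrrn3 at 0.87. Calca, the precursor of calcitonin, measured 1.20 and 4.69 FPKM without virus and 20.4 and 19.5 FPKM with A-CREB. Distances over 4 libraries are a description of likeness, and many neighbours differed when 1 FPKM was added in place of 0.1. In the glucose table none of 3 was then shared for Egr1, Egr2 and Ier2, Giot1 alone was for Egr4, and all 3 were for Ier3. In the A-CREB table all 3 were shared for Egr1, S100a13 alone for Egr4, and Calca and Lrrn3 for Ier2.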

How the data were processed

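RNA of 8 INS-1 libraries, 1 per group, was sequenced after mRNA isolation and NEBNext Ultra preparation, per the labels' protocols. TopHat2, Cuffdiff and the rn5 rat build are named in the submitters' processing notes, while their versions, the annotation, the use of strand and the scaling of libraries are not given in the sources used here. Values deposited by the authors carry no unit in the header and were taken as FPKM from the Cuffdiff name and the values. They stand in 2 tables of 4 libraries cut to genes induced over 2-fold in a reference condition, as tested on the values. Tables were treated separately.

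Libraries were assigned to groups by title and columns by name. Folds are log2((forskolin + 0.1)/(DMSO + 0.1)), and a change is the second condition minus the reference. With 1 library per group no test was run, and a called difference means past 1.5 times (2 times for a fold). The members, lists and rules were chosen with earlier results of these data known. Named genes were the 5 members, listed EGR and IER relatives and regulators, up to 4 genes of each other list with the highest reference fold and no 0, and the 3 nearest genes per member. Fosb is listed by its gene ID and Cfap157 under LOC499781, both named through RefSeq (GRCr8).

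Relative depth came from genes below 1 FPKM, whose ratios pile up on ratios of whole reads (tolerance 2%). Under these depths 170 of 223 such genes of the glucose table and 131 of 135 of the A-CREB table matched whole reads, within 0.05 reads times the square root of the number. The depths were chosen by such matches in low genes of the same tables, so these shares are no separate check of them. One read in the reference DMSO library was worth 0.0530 and 0.112 FPKM at the median gene. Counting ranges for genes other than Egr2 use that worth. The estimate of relative depth and the median change of fold were tested on simulated data. The read counts, the worth of a read, the binomial intervals and the counting ranges were not. Python 3.11.15, numpy 2.4.6, pandas 2.3.3, scipy 1.17.1 and matplotlib 3.10.9 were used.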

Additional observations from a re-analysis of the deposited data

Results flagged for a closer look

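Several genes had opposite directions in 2 conditions, and with 1 library per group none of these differences was tested. Egr1 had a log2 ratio of 20 mM over 2.8 mM of -1.21 in DMSO and 0.13 in forskolin. Egr2 had -0.32 in DMSO and 1.13 in forskolin, on 1 to 16 reads. With A-CREB over no virus, Egr1 had 0.20 in DMSO and -1.21 in forskolin, and Egr4 had 1.77 in DMSO and -0.42 in forskolin. Relative to the table medians these A-CREB directions were no longer opposite, with -0.16 and -0.31 for Egr1 and 1.41 and 0.48 for Egr4. Those medians come from genes selected by their no-virus fold and hold any shift common to the listed genes. The centred values therefore cannot decide whether the directions of these genes were opposite. The forskolin fold of Egr4 was above 1 without virus and below 1 with A-CREB, where its log2 value was -0.48. The same held for its 3 nearest genes, chosen for their likeness to it, with log2 folds with A-CREB of -0.70 for S100a13, -0.50 for Mpzl3 and -0.18 for Fbxo15, and for Calca, a neighbour of Ier2, with -0.060.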

How the results depend on the processing

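No paired analysis was possible because each group had 1 library and the labels give no replicate numbers; for the same reason no library could be left out. Of 140 log2 values under alternative settings, 119 kept their direction and their side of the threshold and 4 took the other sign, all on centring. Of 84 counts of genes, 51 stayed within 1.5 times. A pseudocount of 1 FPKM took Egr2 below the thresholds, with a log2 fold at 20 mM of 0.56, a change of 0.40 and a forskolin ratio of 0.35, and the change of Ier2 with A-CREB to -0.37. A pseudocount of 0.01 FPKM gave Egr2 a fold at 2.8 mM of 1.58 and a DMSO ratio of -0.98. With 1 FPKM added, the table medians of the forskolin ratio were -0.47 for glucose and -0.55 for A-CREB, against -0.67 and -0.90. Centred on the table medians, the glucose changes of Egr4, Ier2 and Ier3 were 0.84, 0.93 and 0.92, and the forskolin ratios of Egr1, Egr4, Ier2 and Ier3 were 0.80, 1.13, 0.83 and -0.081. With A-CREB, centring gave Egr1 a change of -0.21 and a forskolin ratio of -0.31, and it turned the change of Ier2 from -0.62 to 0.57, the DMSO ratio of Egr1 from 0.20 to -0.156 and the forskolin ratio of Egr4 from -0.42 to 0.484. The glucose DMSO ratio of Ier2 went from 0.031 to -0.111. Centring takes away any shift common to genes selected by their reference fold, so centred values only place a gene against those genes.

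The counts over the tables that moved were smaller with fewer genes, a stricter threshold or 1 FPKM added. For the glucose change of fold, 881 lower genes became 569 at a mean of at least 5 FPKM and 528 at 2 times, and 28 higher genes became 13 and 10 at means of at least 1 and 5 FPKM, 15 with 1 FPKM added and 12 at 2 times. For glucose in DMSO, 214 lower genes became 137 at 5 FPKM, 132 with 1 FPKM added and 102 at 2 times, and 379 higher genes became 215 at 5 FPKM and 217 at 2 times. For glucose in forskolin, 734 lower genes became 486 and 458, and 96 higher genes 49 and 47, at 5 FPKM and at 2 times. For the A-CREB change of fold, 447 lower genes became 212 at 5 FPKM, and 18 higher genes became 6 and 3 at 1 and 5 FPKM and 4 with 1 FPKM added. For A-CREB in DMSO, 98 lower genes became 48 at 5 FPKM, 55 with 1 FPKM added and 59 at 2 times, and 218 higher genes became 131, 56, 133 and 145 at 1 FPKM, at 5 FPKM, with 1 FPKM added and at 2 times. For A-CREB in forskolin, 345 lower genes became 190 at 5 FPKM, and 51 higher genes became 30, 13, 33 and 27 in the same order. Without Ctgf, of a mean below 1 FPKM, 0 SRF-type genes were higher at 20 mM, at either mean.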
